A study of Mus musculus with 12 samples.

Results

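A set of 10 Wnt pathway genes, namely the ligands Wnt5a, Wnt5b and Wnt11, the secreted antagonists Sfrp1, Sfrp2, Frzb, Dkk1, Dkk3 and Wif1, and the feedback gene Axin2, were followed in primary mouse chondrocytes treated with the synthetic glucocorticoid dexamethasone (DEX). The 10 genes were taken by name, and every probe set that the platform annotation gives to 1 of them alone was used, which made 22 of the 45101 probe sets on the array. A probe set is a group of short probes that together measure 1 transcript region. A probe set was tested where the mean intensity of some group reached 50, which left 15 probe sets of 8 genes among 20897 tested in all. Wnt5b and Dkk1 stayed below that minimum in every group and are given as levels only.

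Chondrocytes came from the tibiae, femurs and humeri of CD1 mouse embryos at day 15.5, were grown as monolayers, and received either 100 nM DEX or the same volume of its solvent DMSO (vehicle). RNA was taken after 6 hrs or 24 hrs, which gave 4 groups: DEX at 6 hrs, vehicle at 6 hrs, DEX at 24 hrs and vehicle at 24 hrs, with 3 arrays each, numbered 1, 2 and 4. All 4 groups had ascorbic acid and beta-glycerophosphate in the medium, and the sex of the embryos is not given in the sources used here. The arrays came from 3 independent experiments, and the question put to these genes was how DEX changed their RNA at each time.

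Wnt proteins are secreted glycoproteins that bind Frizzled receptors together with a co-receptor. In the canonical branch the co-receptors Lrp5 and Lrp6 are engaged and beta-catenin is spared from degradation, so that it acts with TCF and LEF factors on target genes, while in other branches Ror and Ryk receptors, planar polarity proteins and calcium carry the signal. Secreted antagonists work outside the cell, either by binding the ligand, as the Frizzled-related proteins and Wif1 do, or by occupying the co-receptor, as Dkk1 does. In the mouse growth plate Wnt5a and Wnt5b regulate the step by which chondrocytes leave proliferation, and canonical signalling favours hypertrophy and bone over cartilage.

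The treatment labels held at both times: Tsc22d3, Klf15, Zbtb16, Fkbp5 and Per1, established glucocorticoid targets, were higher with DEX in 6 of 6 pairs of arrays, with log2 differences over both times of 1.47 (Per1) to 4.68 (Klf15). All 12 cartilage markers listed were above the minimum, and Col2a1, the main cartilage collagen, averaged 6218 with DEX and 5345 with vehicle at 6 hrs, and 5942 with DEX and 6751 with vehicle at 24 hrs. Median intensity per array lay between 25.7 and 39.1. The 4 arrays at 6 hrs with replicate numbers 1 and 2, hybridized on 1 day, stood apart: the 3′ over 5′ log2 difference of the Gapdh control probe sets was 0.49 to 0.74 there, against -0.33 to -0.22 on the other 8 arrays. Without these 4, each 6 hrs group holds 1 array (replicate 4), so a fit without them takes its spread from the 24 hrs groups alone and assumes that the lone 6 hrs arrays vary like those. No hybridization day held both times, so time and day cannot be told apart, but each day held DEX and vehicle arrays. Within a time, the DEX and vehicle arrays with the same number deviated together from their group means, so each difference was fitted without a block and, as an alternative, with the 6 pairs as a block.

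**Figure D1:**
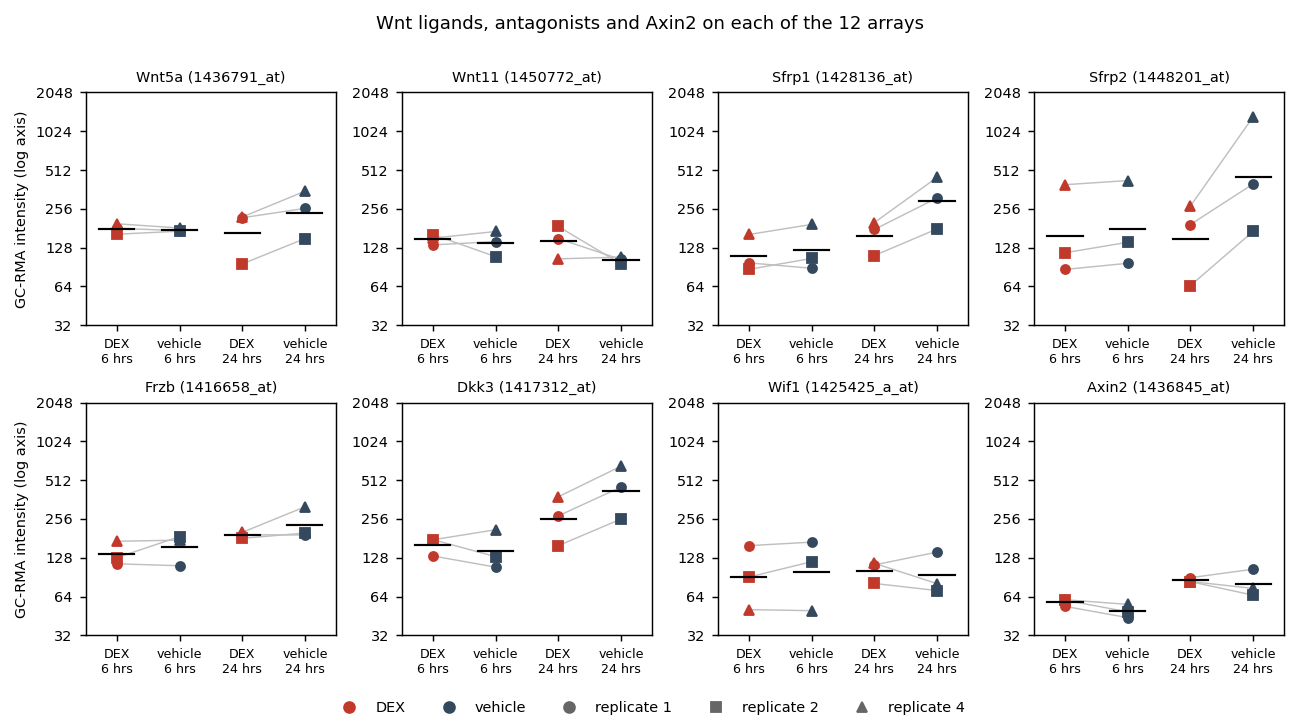
Deposited GC-RMA intensity (log axis) of the probe set with the highest mean for each of the 8 tested genes, with DEX left of vehicle at 6 hrs and then at 24 hrs; points are single arrays, lines join same-numbered arrays and bars are geometric means. At 24 hrs the DEX point lay below its vehicle partner in all 3 pairs for Wnt5a, Sfrp1, Sfrp2 and Dkk3, although the DEX and vehicle ranges overlapped in each.

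At 24 hrs the clearest differences were in 2 Frizzled-related antagonists, Sfrp1 and Sfrp2, in fits with the pairs as a block. Sfrp2 fell to 0.334 of the vehicle level, and Sfrp1 to 0.541 and 0.459 by 2 of its 4 tested probe sets. Frzb, of the same family, did not pass. Without a block, 0 of the 15 member probe sets passed at either time or with the times together (limma, Benjamini-Hochberg adjusted p under 0.05), and 0 had an unadjusted p under 0.05. The shares of all tested probe sets that passed were 0.225% (6 hrs), 0.287% (24 hrs) and 0.747% (both times). With the pairs as a block, 0 of 15 passed at 6 hrs, where 0.904% of all tested probe sets did and 1 member had an unadjusted p under 0.05. At 24 hrs 3 of 15 fell and 0 rose, against 0.703% of all tested probe sets that fell and 2.15% that passed in either direction. Over both times 4 of 15 fell and 0 rose, against 1.29% of all that fell and 3.2% that passed in either direction. These 4 hold 2 probe sets of Sfrp1 and the Wnt5a probe set 1437673_at, which entered the test only through its vehicle groups. By gene, with 1 probe set each, 2 of 8 fell at 24 hrs and 2 of 8 over both times, against 0.796% and 1.47% of all tested genes. With the hybridization day as a block 2 of 15 fell at 24 hrs, 1 over both times and 0 at 6 hrs, against 2.18%, 2.87% and 0.948% of all that passed in either direction.

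Of the 15 member probe sets, 11 lay below 0 at 6 hrs, 11 at 24 hrs and 12 for the times together, beside 52%, 54.9% and 55.2% of all tested probe sets. Counted by gene, with 1 probe set each, 4 of 8 lay below 0 at 6 hrs and 5 of 8 at 24 hrs, beside 51.6% and 55% of all tested genes, since 7 of the 15 probe sets belong to Sfrp1 and Wnt5a. The median log2 difference, DEX minus vehicle, over the 15 was -0.13 at 6 hrs, -0.27 at 24 hrs and -0.24 for the times together, beside -0.0096, -0.030 and -0.019 over all tested probe sets. DEX was lower in all 3 pairs at 24 hrs for 9 of the 15, of the genes Wnt5a, Sfrp1, Sfrp2 and Dkk3, which was the case for 22.6% of all tested probe sets. At 6 hrs 4 of the 15 were lower in all 3 pairs, beside 18.7% of all, and 1 (Axin2) was higher in all 3, beside 14.9%. In 3 of 15, those being the Sfrp2 probe set and 2 of Wnt5a, DEX was lower in all 6 pairs, beside 4.71% of all tested probe sets. Wnt5a 1437673_at and Sfrp1 1416594_at entered the test only through vehicle groups, so the counts of lower values are not independent of that filter. The DEX and vehicle arrays overlapped for all 15 at both times, while at 24 hrs DEX lay wholly above vehicle for 8.45% and wholly below it for 10.9% of all tested probe sets (3.04% and 2.96% at 6 hrs). In this RNA, taken from whole cultures, fewer cells of a type and less RNA per cell cannot be told apart.

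**Figure D2:**
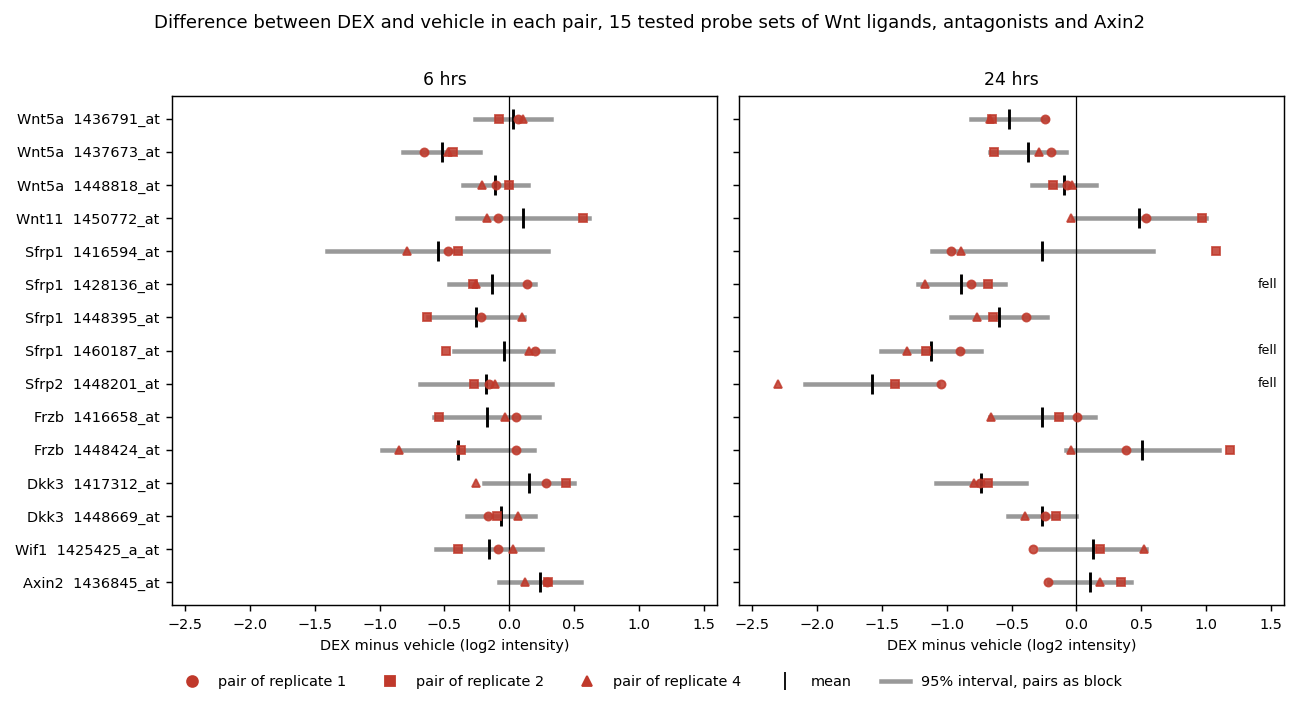
DEX minus vehicle log2 difference of each of the 15 tested probe sets at 6 hrs and at 24 hrs; points are the 3 same-numbered pairs, the tick is their mean and the line is the 95% interval from the fit with pairs as a block. The 3 probe sets marked as fallen at 24 hrs are Sfrp2 at -1.58 and 2 of Sfrp1 at -0.89 and -1.12.

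Wnt5a (chromosome 14, 28504543 to 28527448 in GRCm38.p6) encodes a ligand that acts mostly outside the beta-catenin branch, through Ror receptors. It has 4 probe sets, 3 of them tested. On the one with the highest mean, 1436791_at, the intensities at 24 hrs were 218, 95.6 and 221 with DEX, against 258, 150.2 and 350.3 with vehicle in replicates 1, 2 and 4. Replicate 2 was the lowest in both groups, each DEX array lay below its vehicle partner, and the groups overlapped. The log2 difference was -0.52 with a 95% interval of -0.81 to -0.23 and an adjusted p of 0.0910 with pairs as a block, so it did not pass. At 6 hrs the same probe set read 181, 162 and 196 with DEX and 173, 171 and 182 with vehicle, a difference of 0.032 with an interval of -0.26 to 0.33.

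The other Wnt5a probe sets gave different sizes. On 1437673_at, DEX was lower in all 6 pairs: 41.6, 28.7 and 39.2 with DEX against 65.7, 38.7 and 54.4 with vehicle at 6 hrs, and 53.5, 22.2 and 49.8 with DEX against 61.4, 34.4 and 60.9 with vehicle at 24 hrs. Its group means reached the minimum of 50 only with vehicle (52.9 at 6 hrs and 52.2 at 24 hrs, against 36.5 and 41.8 with DEX). It thus entered the test only through the groups where it is high, and its fall is not independent of that filter. Over both times it fell by 0.45 on the log2 scale (SE 0.09, fold 0.733), with an adjusted p of 0.0444 with pairs as a block, 0.186 with the hybridization day as a block and 1.00 without a block. The call was lost without any 1 of the 6 pairs (adjusted p 0.0886 to 0.137) and without the 4 arrays that stood apart (0.311). On 1448818_at the difference at 24 hrs was -0.094, with an interval of -0.34 to 0.15. The 3 tested Wnt5a probe sets thus shared a sign at 24 hrs and differed in size.

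Wnt11 (chromosome 7, 98835084 to 98854747) encodes a second ligand tied to cell polarity, and it ran the other way at 24 hrs. Its probe set 1450772_at read 150.1, 187 and 105 with DEX, against 103, 95.5 and 108 with vehicle. DEX was higher in replicates 1 and 2 and slightly lower in replicate 4, and the groups overlapped. The log2 difference of 0.49 (fold 1.40, 95% interval -0.025 to 1.00) had an adjusted p of 0.315 with pairs as a block. At 6 hrs the values were 134, 162 and 151 with DEX and 142, 109 and 171 with vehicle, and over both times DEX was lower in 3 of 6 pairs.

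Wnt5b (chromosome 6, 119432531 to 119544824), a ligand of prehypertrophic chondrocytes in the growth plate, was dim in these cultures. Its 2 probe sets ranged from 3.84 to 43.4 over the 12 arrays, and the highest group mean was 34.4. No difference was tested for it.

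Sfrp1 and Sfrp2 encode secreted Frizzled-related proteins, which bind Wnts through a cysteine-rich domain like that of the receptors. Sfrp2 (chromosome 3, 83765750 to 83774314) has 1 probe set, 1448201_at. At 24 hrs it read 193, 64.8 and 268 with DEX, against 399, 171 and 1322 with vehicle in replicates 1, 2 and 4. The highest array of all was vehicle replicate 4 and the lowest was DEX replicate 2, and the groups overlapped because replicate 2 was low in both. Within pairs DEX lay below vehicle in each replicate, with log2 differences of -1.05, -1.40 and -2.30.

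With pairs as a block, Sfrp2 fell at 24 hrs by 1.58 on the log2 scale (SE 0.22, 95% interval -2.09 to -1.07), a fold of 0.334 with an interval of 0.234 to 0.477 and an adjusted p of 0.0174. Without a block the same difference had an SE of 0.86, an interval of -3.48 to 0.32 and an adjusted p of 0.914. The call was also lost with the hybridization day as a block (adjusted p 0.0697), without the replicate 2 pair at 24 hrs (0.0865) and without the 4 arrays that stood apart (0.0517). At 6 hrs Sfrp2 read 86.5, 117 and 394 with DEX and 96.6, 141 and 424 with vehicle, each DEX array slightly below its partner. The difference there was -0.18, with an interval of -0.69 to 0.33, and over both times it was -0.88 (SE 0.15, adjusted p 0.0275 with pairs as a block). That call was lost without a block (1.00) and with the hybridization day as a block (0.141), and it was kept in 2 of the 6 fits without a pair.

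Sfrp1 (chromosome 8, 23411383 to 23449632) has 5 probe sets, 4 of them tested. On 1428136_at the intensities at 24 hrs were 177, 111 and 199.8 with DEX, against 310.3, 178 and 448 with vehicle. On 1460187_at they were 123, 45.1 and 122 with DEX, against 230.03, 101 and 301 with vehicle. On both, replicate 2 was again the lowest in each group, vehicle replicate 4 the highest, and every DEX array lay below its partner. With pairs as a block 1428136_at fell by 0.89 on the log2 scale (SE 0.14, 95% interval -1.22 to -0.55, adjusted p 0.0296), and 1460187_at fell by 1.12 (SE 0.16, adjusted p 0.0207). Without a block the adjusted p values were 0.809 and 1.00, and with the hybridization day as a block both passed, at 0.0253 and 0.0310. For 1428136_at, the call was lost without the 6 hrs pair of replicate 2 (0.0538), without the 24 hrs pair of replicate 1 (0.113), 2 (0.0966) or 4 (0.148), and without the 4 arrays that stood apart (0.0569). For 1460187_at it was lost without the 24 hrs pair of replicate 1 (0.0900), 2 (0.120) or 4 (0.125) and kept without the 4 arrays (0.0282).

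The remaining Sfrp1 probe sets did not pass. On 1448395_at the 24 hrs values were 127, 75.0 and 142 with DEX and 165, 117 and 240.5 with vehicle, lower in all 3 pairs, with a log2 difference of -0.60 (interval -0.97 to -0.23, adjusted p 0.118 with pairs as a block). On 1416594_at DEX was higher in replicate 2 and lower in the other pairs, with a difference of -0.26. At 6 hrs no Sfrp1 probe set passed. There 1428136_at read 97.3, 86.7 and 162 with DEX and 88.4, 105 and 194 with vehicle. Its difference was -0.13, with an interval of -0.47 to 0.20. The other differences at 6 hrs were -0.042 on 1460187_at, -0.25 on 1448395_at and -0.55 on 1416594_at. The last was lower in all 3 pairs, with an interval of -1.41 to 0.30. In replicates 1 and 2 at 6 hrs, 1460187_at read 8.22 to 15.4 and 1416594_at 1.94 to 4.64, far below the minimum for testing. Over both times the called probe sets stood at -0.51 (adjusted p 0.0434) and -0.58 (adjusted p 0.0444) with pairs as a block. Neither call held without a block (1.00 for each) or in any of the 6 fits without a pair (0.0561 to 0.135 for 1428136_at and 0.0714 to 0.144 for 1460187_at), and with the hybridization day as a block 1428136_at passed (0.0481) and 1460187_at did not (0.0886).

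Frzb (chromosome 2, 80411970 to 80447396), also known as Sfrp3 and expressed in developing cartilage, has the same kind of domain and did not pass. On 1416658_at it read 193, 181 and 202 with DEX and 192, 199 and 318 with vehicle at 24 hrs, a log2 difference of -0.26 with an interval of -0.67 to 0.14. The second probe set, 1448424_at, read 82.8, 104 and 122 with DEX and 63.5, 45.6 and 126 with vehicle, a difference of 0.51 with an interval of -0.08 to 1.10. The 2 probe sets disagreed in sign, neither passed (adjusted p 0.492 and 0.355 with pairs as a block), and the groups overlapped on both.

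The 250 bases upstream of the listed start are shown for Sfrp2, which fell, and for Frzb, of the same family, which did not pass, so that the promoters can be read side by side. RefSeq windows on GRCm38.p6 were at hand for 7 of the 10 genes, and Sfrp1 had none. The windows are chr3:83766071-83766320 on the plus strand for Sfrp2 and chr2:80447397-80447646 on the minus strand for Frzb, and capitals mark a match to a motif searched on both strands.
Sfrp2: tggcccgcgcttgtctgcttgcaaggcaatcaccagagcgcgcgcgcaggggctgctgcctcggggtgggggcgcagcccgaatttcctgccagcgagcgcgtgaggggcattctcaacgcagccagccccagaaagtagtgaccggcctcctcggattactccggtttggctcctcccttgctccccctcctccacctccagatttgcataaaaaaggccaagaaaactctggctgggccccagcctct
Frzb: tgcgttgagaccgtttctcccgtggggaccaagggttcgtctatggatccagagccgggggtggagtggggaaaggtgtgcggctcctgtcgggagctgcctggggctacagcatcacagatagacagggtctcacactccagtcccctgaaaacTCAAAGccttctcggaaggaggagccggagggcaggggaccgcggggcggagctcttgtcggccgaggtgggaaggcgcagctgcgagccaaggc
The motifs were the glucocorticoid receptor hexamer AGAACA, read as TGTTCT on the other strand, present in 16.1% of 32851 windows of this length, the TCF and LEF core CTTTGA, read as TCAAAG on the other strand, present in 13.8%, and the palindromic glucocorticoid response element, which contains the hexamer on each strand and was present in 3 windows. The Sfrp2 window had no match to these letters and a GC content of 63.6%. The Frzb window had TCAAAG from 95 to 90 bases before the start and a GC content of 64.4%. The Sfrp2 window lies inside the listed range of the gene, which begins farther upstream, and a match or its absence in a window says only where these letters stand.

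Dkk3 (chromosome 7, 112116019 to 112159482) encodes the divergent member of the Dickkopf family, whose part in Wnt signalling is less settled than that of Dkk1. On 1417312_at it read 271, 159 and 381 with DEX, against 453, 256 and 657 with vehicle at 24 hrs, lower in all 3 pairs by similar steps (-0.74, -0.68 and -0.79 on the log2 scale). The groups overlapped because replicate 2 was low in both. The fold was 0.599 and the log2 difference -0.74 (SE 0.15, 95% interval -1.09 to -0.39), with an adjusted p of 0.0540 with pairs as a block, just short of the threshold, and of 0.912 without. It passed in 1 of the 6 fits that left out a pair, the one without the 6 hrs pair of replicate 4 (adjusted p 0.0318), and not without the 4 arrays that stood apart (0.0565). The second probe set, 1448669_at, gave -0.27 at 24 hrs with an interval of -0.53 to -0.0053 and an adjusted p of 0.282.

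At 6 hrs Dkk3 showed no such pattern: 1417312_at read 132, 177 and 176 with DEX and 108, 131 and 211 with vehicle, higher in replicates 1 and 2 and lower in replicate 4, with a difference of 0.16 and an interval of -0.19 to 0.50. Dkk1 (chromosome 19, 30545876 to 30549496), which blocks Lrp5 and Lrp6, was dim throughout. Its 2 probe sets ranged from 0.606 to 58.4, with a highest group mean of 37.9. On 1420360_at it read 17.3, 15.6 and 31.5 with DEX and 27.4, 28.02 and 58.4 with vehicle at 24 hrs, below the level at which a difference was tested.

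Wif1 (chromosome 10, 121034004 to 121100642) encodes Wnt inhibitory factor, which binds Wnts through its own domain and is made at cartilage surfaces. Its probe set 1425425_a_at read 159, 90.7 and 50.6 with DEX and 169, 119 and 49.7 with vehicle at 6 hrs, a log2 difference of -0.15 with an interval of -0.56 to 0.26. At 24 hrs it read 113, 80.8 and 116 with DEX and 142, 71.2 and 80.6 with vehicle, a difference of 0.13 with an interval of -0.28 to 0.54. At both times the replicates of a group differed more than DEX and vehicle did, and both intervals exclude the log2 difference of -1.58 seen for Sfrp2 at 24 hrs.

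Axin2 (chromosome 11, 108917828 to 108950783) encodes a scaffold of the complex that degrades beta-catenin and is itself a target of beta-catenin with TCF, so its RNA is widely used as a readout of the canonical branch. On 1436845_at it read 53.7, 60.0 and 60.4 with DEX and 43.9, 48.7 and 55.6 with vehicle at 6 hrs, higher in all 3 pairs but overlapping as groups. At 24 hrs the values were 89.6, 83.5 and 83.7 with DEX and 104, 65.6 and 74.0 with vehicle, higher in replicates 2 and 4. The log2 differences were 0.24 at 6 hrs (95% interval -0.08 to 0.55, adjusted p 0.576 with pairs as a block) and 0.10 at 24 hrs (interval -0.21 to 0.42, adjusted p 0.745). DEX was higher in 5 of 6 pairs, and neither difference passed.

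The Axin2 window is shown because it held the glucocorticoid receptor hexamer. A window of Wnt5b, a gene too dim to test, also held it, 234 to 229 bases before the start, and is not printed. The Axin2 window spans chr11:108920099-108920348 on the plus strand of GRCm38.p6, inside the listed range of the gene, with the hexamer in capitals.
Axin2: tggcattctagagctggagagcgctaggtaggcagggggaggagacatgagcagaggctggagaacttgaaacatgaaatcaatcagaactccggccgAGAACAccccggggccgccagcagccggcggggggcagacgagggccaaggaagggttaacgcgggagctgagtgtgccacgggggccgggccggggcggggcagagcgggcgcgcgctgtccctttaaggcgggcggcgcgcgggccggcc
The match stands 152 to 147 bases before the start, and the GC content was 69.2%.

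Whether DEX acted differently at 24 hrs than at 6 hrs was tested as the difference of the 2 differences. None of the 15 member probe sets passed, without a block (0 with an unadjusted p under 0.05, and 0% of all tested probe sets called) or with pairs as a block (6 with an unadjusted p under 0.05, and 0.00479% of all called). The share of all tested probe sets with an unadjusted p under 0.05 was not counted, so the 6 are not read as an excess. The sizes with pairs as a block were -1.40 for Sfrp2 (adjusted p 0.280), -1.08 and -0.75 for the called Sfrp1 probe sets (0.278 and 0.286) and -0.89 for Dkk3 (0.280). The vehicle cultures themselves differed between the times: vehicle at 24 hrs minus vehicle at 6 hrs was 1.32 for Sfrp2, 1.26 for Sfrp1 1428136_at and 1.56 for Dkk3 1417312_at on the log2 scale. In the DEX cultures the same differences were -0.081, 0.51 and 0.66. At 6 hrs vehicle replicate 4, hybridized on another day than replicates 1 and 2, lay above their mean by 1.86 for Sfrp2 and 3.07 for Sfrp1 1460187_at, and replicate and day cannot be told apart there.

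The members were then compared with each other over the arrays. Over the 12 arrays, with the mean of each hybridization day taken off, Pearson's r was 0.939 between Sfrp1 and Sfrp2, 0.895 between Wnt5a and Sfrp1, 0.873 between Sfrp2 and Dkk3, and -0.664 between Wnt5a and Wnt11. Pearson's r was 0.75 between Wnt5a and Dkk3, and Frzb, which did not pass, gave 0.769 with Sfrp2 and 0.647 with Sfrp1. These points share arrays and treatment, and the DEX difference was not taken off. Members that fell together are thus bound to correlate, and r is a description that adds no support to their falls. Of 11052 other genes, those most like Sfrp1 were Atf6, a sensor of endoplasmic reticulum stress (r 0.971), Mmp3, the matrix protease stromelysin (0.947), and Gpc1, a cell surface proteoglycan (0.944). Those most like Sfrp2 were Pcdhb17 (0.973), Moxd1 (0.967) and Gch1, the first enzyme of tetrahydrobiopterin synthesis (0.960).

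Markers of other cell types were read beside these results, because long bone preparations can hold perichondrium, muscle and blood cells. Of 12 skeletal muscle markers 10 were above the minimum, and their summed intensity at 24 hrs was 452 to 1168 with DEX and 512 to 1731 with vehicle, lower with DEX in all 3 pairs (-0.57 to -0.18 on the log2 scale). Of 10 macrophage markers 6 were above it, with sums of 558 to 688 with DEX and 707 to 901 with vehicle (-0.55 to -0.26), while Ptprc, C1qa, C1qb and Tyrobp were below the minimum in every group. Both sums thus lay in the direction of Sfrp1 and Sfrp2 at 24 hrs, and their part in the result was not tested. All 13 tendon and perichondrial fibroblast markers were above the minimum, and the pair differences of their sum at 24 hrs lay on both sides of 0, from -0.15 to 0.20. That sum includes Postn, which rose at 24 hrs from a mean of 545 with vehicle to 1481 with DEX. Its log2 difference was 1.40 (adjusted p 0.00364 with pairs as a block). No other fibroblast marker passed there, and the rest lay on both sides of 0, from -0.56 (Scx) to 0.30 (Tnmd). Sums of the osteoblast and adipocyte lists were higher with DEX in all pairs at 24 hrs (0.49 to 1.46 over 3 of 6 markers, without Runx2, Bglap and Phex, and 1.31 to 3.22 over 2 of 6, without Adipoq, Plin1, Cfd and Lep). The hypertrophic list, with 5 of 6 markers above the minimum, gave 0.012 to 0.70, and the endothelial list, with 1 of 6 and without Pecam1, Cdh5, Tek, Emcn and Tie1, gave -0.45 to 0.079.

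**Figure D3:**
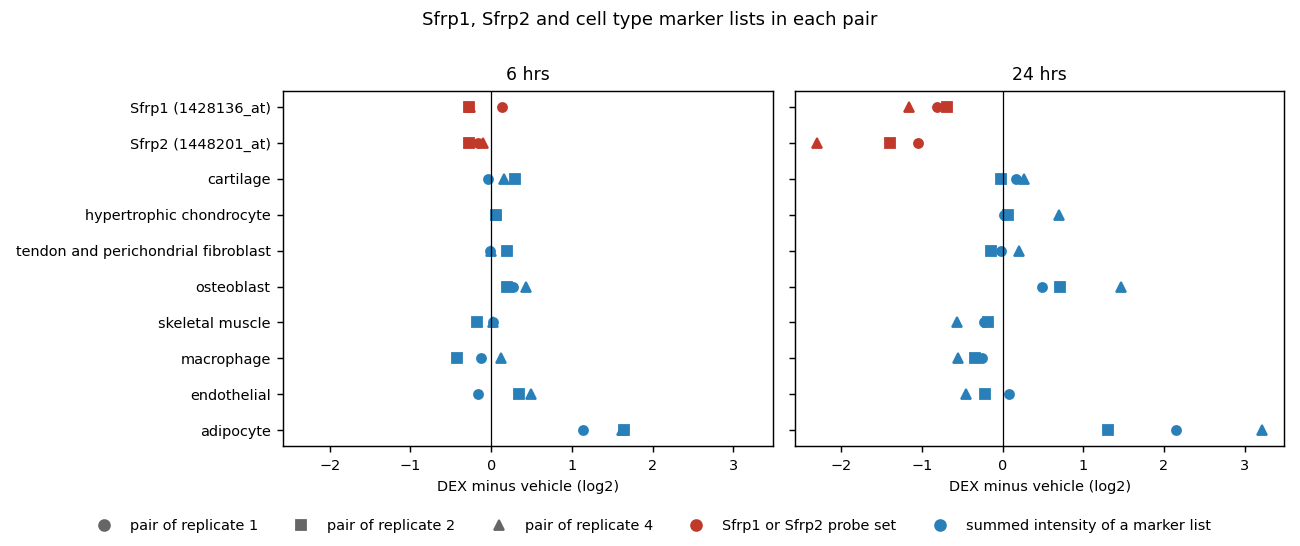
DEX minus vehicle log2 difference in each same-numbered pair at 6 hrs and at 24 hrs, for Sfrp1, Sfrp2 and the summed intensity of each marker list; points are pairs. At 24 hrs the muscle and macrophage sums lay below 0 in all 3 pairs, as Sfrp1 and Sfrp2 did, and by less. The fibroblast sum, which includes the risen Postn, lay on both sides of 0.

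Around these members, a list of 109 other Wnt pathway genes was read, of which 107 were in the table and 81 were tested by 1 probe set each. Without a block 1 rose at 6 hrs, 2 rose at 24 hrs and 2 rose over both times, and none fell by the probe set that stands for the gene, against 0.271%, 0.344% and 0.715% of all tested genes that rose. Of the 81, 7, 8 and 14 had an unadjusted p under 0.05. The share of all tested genes with such a p was not counted, so these counts are not read as an excess. With pairs as a block 1 rose and 4 fell at 6 hrs (0.751% and 0.326% of all genes), 2 rose and 2 fell at 24 hrs (1.71% and 0.796%), and 4 rose and 6 fell over both times (2.13% and 1.47%). Rspo2 and Tle2, among those that fell, entered the test only through vehicle groups. The counts of falls are thus not independent of that filter. The list's median log2 difference over both times was -0.065, beside -0.018 for all genes.

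Ror1, a receptor tyrosine kinase that binds Wnt5a, rose at both times. It read 549, 499 and 422 with DEX against 184, 156 and 142 with vehicle at 6 hrs, and 227, 211 and 226 with DEX against 116, 100.04 and 125 with vehicle at 24 hrs. DEX and vehicle did not overlap at either time. The difference was 1.61 at 6 hrs (SE 0.17, fold 3.05, adjusted p 0.00234 without a block) and 0.97 at 24 hrs (adjusted p 0.0433). In fits without a pair, the 6 hrs call was kept in 6 of 6 with pairs as a block and in 5 of 6 without a block, where it was lost without the 6 hrs pair of replicate 2 (0.0933). The 24 hrs call was kept in 4 of 6 with pairs as a block and in 1 of 6 without. In replicate 4 alone, the 1 pair at 6 hrs outside the 4 arrays that stood apart, the 6 hrs difference was 1.57, with an adjusted p of 0.0619 without a block when the lone arrays are assumed to vary like the 24 hrs groups. Of the 15 receptors tested, Fzd9, a Frizzled receptor, was the other that passed over both times, with 0.53 and an adjusted p of 0.0374 with pairs as a block. It was lost without a block (0.678) and with the hybridization day as a block (0.0554), and was kept in 1 of 6 fits without a pair.

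Sostdc1, a secreted antagonist of both bone morphogenetic proteins and Wnts, rose at 24 hrs. It read 263, 258 and 237 with DEX, against 56.9, 87.6 and 96.6 with vehicle at 24 hrs, without overlap. The difference was 1.69 (SE 0.28, fold 3.22, adjusted p 0.0384 without a block), and at 6 hrs it was 1.25 (adjusted p 0.222). The 24 hrs call was kept in 1 of the 6 fits without a pair, the one without the 6 hrs pair of replicate 4 (0.00235), and without the 4 arrays that stood apart (0.0143). Apcdd1, a membrane-bound Wnt antagonist, fell at 6 hrs by 3 probe sets. The first read 34.1, 36.6 and 42.9 with DEX, against 63.2, 75.4 and 74.6 with vehicle, without overlap, and fell by 0.91 (adjusted p 0.0384 without a block, 0.0159 with pairs and 0.00579 with the hybridization day as a block). The second fell by 1.01 (adjusted p 0.0268 without a block), and the one with the highest mean, counted in the list, by 0.79 (0.0345 with pairs as a block and 1.00 without). With pairs as a block, the 6 hrs calls of these 3 were kept in 3, 1 and 0 of the 6 fits without a pair, and without a block the calls of the first and the second were kept in 1 and 0 of 6. Of the other 5 ligands tested, Wnt4 rose over both times by 0.94 with pairs as a block (adjusted p 0.0137, and 0.883 without a block), a call lost without the 24 hrs pair of replicate 2 (0.0581) or 4 (0.0526).

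In the R-spondin system and among the target genes, those that passed fell. Rspo2, an R-spondin that strengthens Wnt signalling, read 33.1, 18.8 and 60.7 with DEX, against 60.01, 31.8 and 155 with vehicle at 24 hrs, lower in all 3 pairs with overlapping groups. Over both times it fell by 0.96 on the log2 scale (fold 0.515, adjusted p 0.00482 with pairs as a block and 0.776 without), and the call was lost without the 4 arrays that stood apart (0.0896). Tnfrsf11b, which encodes the decoy receptor osteoprotegerin and is a beta-catenin target in osteoblasts, read 411, 587 and 432 with DEX, against 1137, 1181 and 752 with vehicle at 24 hrs. Its groups did not overlap, and over both times it fell by 1.12 (fold 0.460, adjusted p 0.00648 with pairs as a block and 0.111 without).

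Further falls over both times, with pairs as a block, came from Tle2, a Groucho co-repressor (-0.96, adjusted p 0.00699), Ccn4, a beta-catenin target (-0.53, 0.0243), Prickle2 of the planar polarity branch (-0.47, 0.0333) and Lef1, a partner of beta-catenin on DNA (-0.39, 0.0465). Without a block none of these probe sets passed, while a second probe set of Ccn4 did, at -0.57 (0.0476). Tle2 averaged 10.3 with DEX and 23.4 with vehicle at 6 hrs, and 31.2 with DEX and 52.3 with vehicle at 24 hrs. It reached the minimum for testing only with vehicle at 24 hrs, so its fall is not independent of that filter. Leaving out a pair kept the calls of Rspo2, Tnfrsf11b and Tle2 in 6 of 6 fits, of Ccn4 and Prickle2 in 1 of 6 each and of Lef1 in 0 of 6. Axin2, another target gene, stood at 0.17 over both times and did not pass. Of the 13 TCF factors and targets tested, 3 fell and none rose over both times with pairs as a block, and 10 did not pass. Of the 21 genes of the beta-catenin cascade tested, 1 fell and 20 did not pass. Nfatc1, Lgr6 and Igfbp4 passed only by a probe set that does not stand for the gene, and are not in these counts. With pairs as a block, the Nfatc1 fall over both times passed in 6 of 6 fits without a pair. Those of Lgr6 and Igfbp4 at 24 hrs passed in 3 and 0 of 6. The Nfatc1 probe set reached the minimum for testing only with vehicle, so its fall is not independent of that filter.

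**Figure D4:**
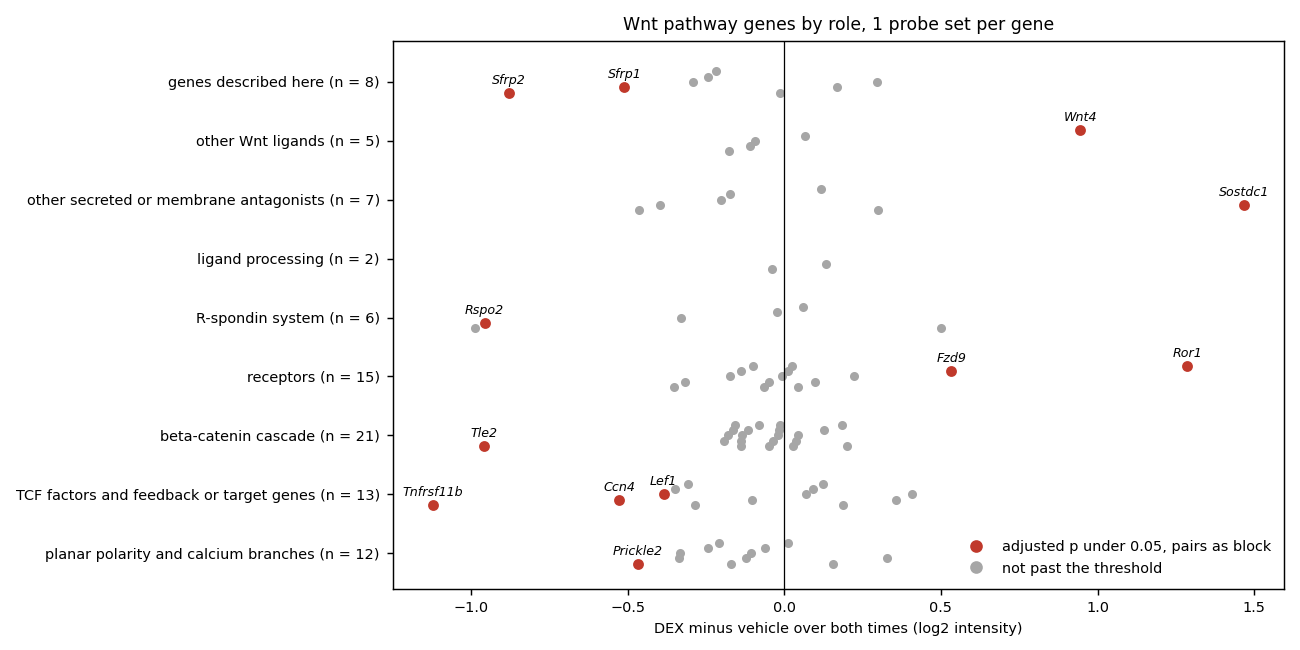
DEX minus vehicle log2 difference over both times of the 8 tested members and the 81 other tested Wnt pathway genes by role, 1 point per gene; red points passed with pairs as a block (adjusted p under 0.05) and are named. Ror1 at 1.29 and Sostdc1 at 1.47 stand highest and Tnfrsf11b at -1.12 is the lowest that passed.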

How the data were processed

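Intensities are the values the authors deposited: per the study's methods, scans of Affymetrix mouse whole-genome arrays were background-corrected and normalized with GC-RMA in GeneSpring GX, giving linear intensities. GCRMA is also named in the submitters' processing notes, and its version is not given in the sources used here. Log2 values were taken with no pseudocount. Of 45101 probe sets, 34958 carry 1 gene symbol in the platform annotation, 932 several and 9211 none listed. A probe set entered the test where the mean of some group reached 50.

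Differences between DEX and vehicle were fitted to all 12 arrays with limma 3.58.1 (lmFit, eBayes) in R 4.3.3, with 4 group means, and p-values were adjusted by Benjamini-Hochberg over 20897 probe sets. The script was checked on simulated data. Same-numbered DEX and vehicle arrays deviated together (r 0.632 to 0.863 at 6 hrs, 0.158 to 0.301 at 24 hrs), each best with its own number. At 6 hrs unlike numbers hybridized on the same day (1 with 2) gave 0.506 and 0.571, so r there also holds the hybridization day. Unlike numbers at 24 hrs gave -0.216 to 0.0181. The numbers were therefore taken to pair the samples within a time, and a pair-blocked value stands beside each result whose call it changes. That the labelled replicates are separate cultures rests on the 3 independent experiments the labels name. Intervals are 95%. The probe set with the highest mean stands for a gene. Every member was named, with at most 4 other pathway genes per role, from those that passed, and the 3 genes most like each member that passed over both times. Members and lists were chosen with earlier results of these data known. The number of arrays limits precision. Alternatives were the block, the hybridization day, the filter, quantile normalization, 16 added before log2, subsets of arrays, and the methods' test with unequal variances. Promoter windows are RefSeq's (GRCm38.p6). Hybridization days came from the scanner's experiment files. Python 3.11.15 and matplotlib 3.10.9 drew the figures.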

Additional observations from a re-analysis of the deposited data

How the results depend on the processing

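Without a block, 47, 60, 156 and 0 probe sets were called at 6 hrs, at 24 hrs, over both times and for the difference between times. These counts were 18, 22, 73 and 1 with no intensity filter, 189, 449, 668 and 1 with the replicate pairs as a block, and 198, 455 and 600 (first 3 comparisons) with the hybridization day as a block. Members called, by 1 probe set each, were 0 without a block in all 4 comparisons. With the pairs as a block 2 were called at 24 hrs and 2 over both times, Sfrp1 and Sfrp2, and with the day as a block 1 and 1, Sfrp1. The pairing changed no other call of a member by its probe set with the highest mean. Only the arrays compared gave 0 at 6 hrs and 163 at 24 hrs, the third day alone 2 at 6 hrs, and the methods' test with unequal variances 0, 0 and 38. Leaving out the third-day arrays, a choice made after seeing the data, left 1 array in each 6 hrs group, with the spread taken from the 24 hrs groups, and gave 43, 272, 238 and 0 with the pairs as a block and 48, 163, 164 and 8 without, and no member was called by its probe set with the highest mean. Leaving out 1 array gave 18 to 38, 16 to 88, 90 to 156 and 0 to 0, with 0 to 0 members. Leaving out 1 pair with the block, also added after seeing the data, gave 55 to 111, 103 to 357, 331 to 393 and 0 to 3, with members at 0 to 0, 0 to 3 and 0 to 1.

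Sfrp2 at 24 hrs kept its call in 5 of the 6 fits without 1 pair (adjusted p 0.0306 to 0.0865) and Sfrp1 in 2 of 6 (0.0377 to 0.148). Over both times Sfrp2 kept it in 2 of 6 (0.0258 to 0.0937) and Sfrp1 in 0 of 6 (0.0561 to 0.135). Within the 24 hrs arrays of replicates 1 and 4, on 1 day, the differences were -1.67 for Sfrp2 (adjusted p 0.352) and -0.99 for Sfrp1 (0.202). Differences near 0 changed sign: Wnt5a at 6 hrs within the third day (-0.0067) and as a median over probe sets (-0.11), Axin2 at 24 hrs within the second day (-0.020), Frzb at 24 hrs as a median over probe sets (0.12), and in the single 6 hrs pair left without the third-day arrays (replicate 4) Wnt11 (-0.17), Dkk3 (-0.26) and Wif1 (0.027) at 6 hrs, and with that pair Wif1 over both times (0.076). Leaving out 1 array, ranges that crossed 0 at 6 hrs were -0.032 to 0.10 for Wnt5a, -0.068 to 0.26 for Wnt11, -0.41 to 0.20 for Sfrp1, -0.84 to 0.44 for Sfrp2, -0.050 to 0.43 for Dkk3 and -0.66 to 0.26 for Wif1. At 24 hrs they were -0.069 to 0.43 for Wif1 and -0.038 to 0.30 for Axin2, and over both times -0.27 to 0.19 for Wif1. Leaving out 1 pair they were, at 6 hrs, -0.0067 to 0.086 for Wnt5a, -0.13 to 0.24 for Wnt11 and -0.29 to 0.011 for Frzb, at 24 hrs -0.074 to 0.35 for Wif1 and -0.020 to 0.26 for Axin2, and over both times -0.11 to 0.10 for Wif1. The cause of these changes was not tested. The stricter filter at 100, quantile normalization and 16 added changed no member call.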
